A study of Mus musculus with 12 samples.

Results

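The genes described are the 3 uncoupling protein genes of the mouse, Ucp1, Ucp2 and Ucp3, which were found by symbol as 3 of the 32285 genes in the count tables. They were followed through nuclei isolated from adipose depots of male C57BL/6J mice on normal chow. The labels give the depots as mPRAT, lPRAT, iBAT and iWAT without spelling them out; these names are commonly read as the medial and lateral parts of perirenal fat, brown fat between the shoulder blades, and white fat of the groin. The stated purpose was to compare brown with white depots over age and to look at how each depot responds to cold.

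There were 12 groups with 1 library each. The 22 °C libraries were mPRAT and iBAT of 3 ages (1, 2 and 6 months), lPRAT of the 2 later ages and iWAT of 6 months. After 3 days at 4 °C, mPRAT, iBAT and iWAT were sampled at 6 months. The titles give these ages in months, whereas another field gives 4, 8 and 16 weeks, so the oldest age is named here by its title. No group carries a transgene or deletion according to the labels, and the number of animals behind a library is not given in the sources used here. With 1 library per group there is no replicate error. Intervals below are 95% counting intervals for the nuclei of that library, and no difference was tested between conditions. Those of levels and ratios take each counted transcript as independent. They leave out the clustering of transcripts in some nuclei and are too narrow where it is strong.

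Uncoupling proteins are carriers of the inner mitochondrial membrane. UCP1 lets protons return to the matrix without making ATP, so that respiration in thermogenic adipocytes is released as heat; it is activated by fatty acids and held back by purine nucleotides, and noradrenaline released in the cold acts on both its gene and its activity. UCP2 is found in many tissues, and spleen and macrophages are well known sites of it. UCP3 is known from skeletal muscle and brown fat, where its gene responds to fatty acids and to nuclear receptors of the PPAR family. Neither UCP2 nor UCP3 is regarded as the main heat-producing protein.

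In the GENCODE annotation of GRCm38, Ucp1 (ENSMUSG00000031710) spans chr8:83290352-83298452 on the plus strand, with 1 annotated transcript of 6 exons. Ucp3 (ENSMUSG00000032942) and Ucp2 (ENSMUSG00000033685) lie side by side in the same orientation on chromosome 7, at chr7:100472990-100486432 and chr7:100493337-100502020, so that the end of Ucp3 is 6904 bases upstream of the start of Ucp2. The 250 bases before each gene's RefSeq start (GRCm38.p6, plus strand) are shown because Ucp2 was highest in another class of nuclei than its neighbour Ucp3 and than Ucp1. The windows are chr8:83290098-83290347 for Ucp1, chr7:100493108-100493357 for Ucp2 and chr7:100472741-100472990 for Ucp3. Capitals mark the 3 words searched on both strands, which are TATANA, found in TATA boxes, TGACG, the core of a cAMP response element, and GGGCGG, known as the GC box.
Ucp1: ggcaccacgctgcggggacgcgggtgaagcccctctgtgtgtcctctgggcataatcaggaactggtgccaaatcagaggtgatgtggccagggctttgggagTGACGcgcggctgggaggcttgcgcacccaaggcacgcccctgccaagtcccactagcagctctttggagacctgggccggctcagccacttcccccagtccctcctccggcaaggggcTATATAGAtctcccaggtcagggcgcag
Ucp2: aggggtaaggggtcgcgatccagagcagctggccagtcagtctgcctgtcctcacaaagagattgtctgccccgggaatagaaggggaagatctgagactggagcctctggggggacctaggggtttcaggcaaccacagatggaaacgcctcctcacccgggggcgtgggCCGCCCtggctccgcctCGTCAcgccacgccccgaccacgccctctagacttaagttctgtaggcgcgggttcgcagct
Ucp3: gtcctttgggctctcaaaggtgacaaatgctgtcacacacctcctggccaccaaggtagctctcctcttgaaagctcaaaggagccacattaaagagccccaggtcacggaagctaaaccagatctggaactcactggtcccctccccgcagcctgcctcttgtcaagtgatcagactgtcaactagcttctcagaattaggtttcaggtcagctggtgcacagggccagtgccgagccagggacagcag
The Ucp1 window held overlapping TATANA matches from 28 to 21 bases before the start and TGACG from 147 to 143 bases before it. The Ucp2 window held TGACG on the minus strand, from 62 to 58 bases before the start, and GGGCGG on the minus strand, from 79 to 74 bases before it. None of the words occurred in the Ucp3 window. Among 32851 RefSeq promoter windows of this length, 22.6% held TATANA, 17.8% held TGACG and 32.7% held GGGCGG. The Ucp1 and Ucp2 windows were richer in GC (64.8% and 63.6%) than the Ucp3 window (54.8%), against a median of 52.4% over all windows. They held 12 and 16 CpG dinucleotides, and the Ucp3 window held 3, against a median of 6. A match of this kind describes the letters only.

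Nuclei had been sorted and run on a droplet platform that counts the 3′ ends of transcripts with unique molecular identifiers (UMIs). The libraries held between 5461133 (lPRAT at 2 months) and 87035783 UMIs (iBAT in cold). Of 119035 barcodes, 106898 passed the filters on depth and mitochondrial share, and 94279 could be placed in a class by marker genes; classes are called adipocyte-like and so on, since they rest on markers alone. Adipocyte-like nuclei numbered 2073 to 18486 per library (71641 in all). Each of the 10 adipocyte markers was detected in them in each library, which does not check the class, since these markers picked the nuclei. Their median depth was lowest, 939 UMIs, in the younger lPRAT library and highest, 6762 UMIs, in iBAT after cold. Cold mPRAT stood apart in that 66.0% of its barcodes with enough UMIs and genes exceeded the mitochondrial limit, and lPRAT at 2 months in its depth. No pair of libraries shared more than 76 barcodes, and over all pairs the shared share of the smaller library was at most 0.734%. Levels are given as CPM, the gene's UMIs per 1000000 UMIs of that class in that library, a scale that is not per length and is therefore used only within a gene.

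Each gene had its own pattern over the classes. Ucp3 was highest in adipocyte-like nuclei in 12 of 12 libraries, and these nuclei held a median of 95.5% (89.2% to 98.8%) of all its UMIs. Ucp1 was highest in adipocyte-like nuclei in 9 of 12 libraries; the exceptions were lPRAT, with 0 and 1 counts in those nuclei, and iWAT at 22 °C, with 29 counts. Ucp2 was highest in macrophage-like nuclei in all libraries but 1, iBAT at 6 months and 22 °C, where they had 7 counts. Adipocyte-like nuclei held a median of 25.6% of a library's Ucp2 UMIs, although they were 71641 of the 106898 kept nuclei. Over all libraries macrophage-like nuclei held 798 of 2873 Ucp2 UMIs, nuclei with markers of several classes 361 and nuclei in no class 387.

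**Figure D1:**
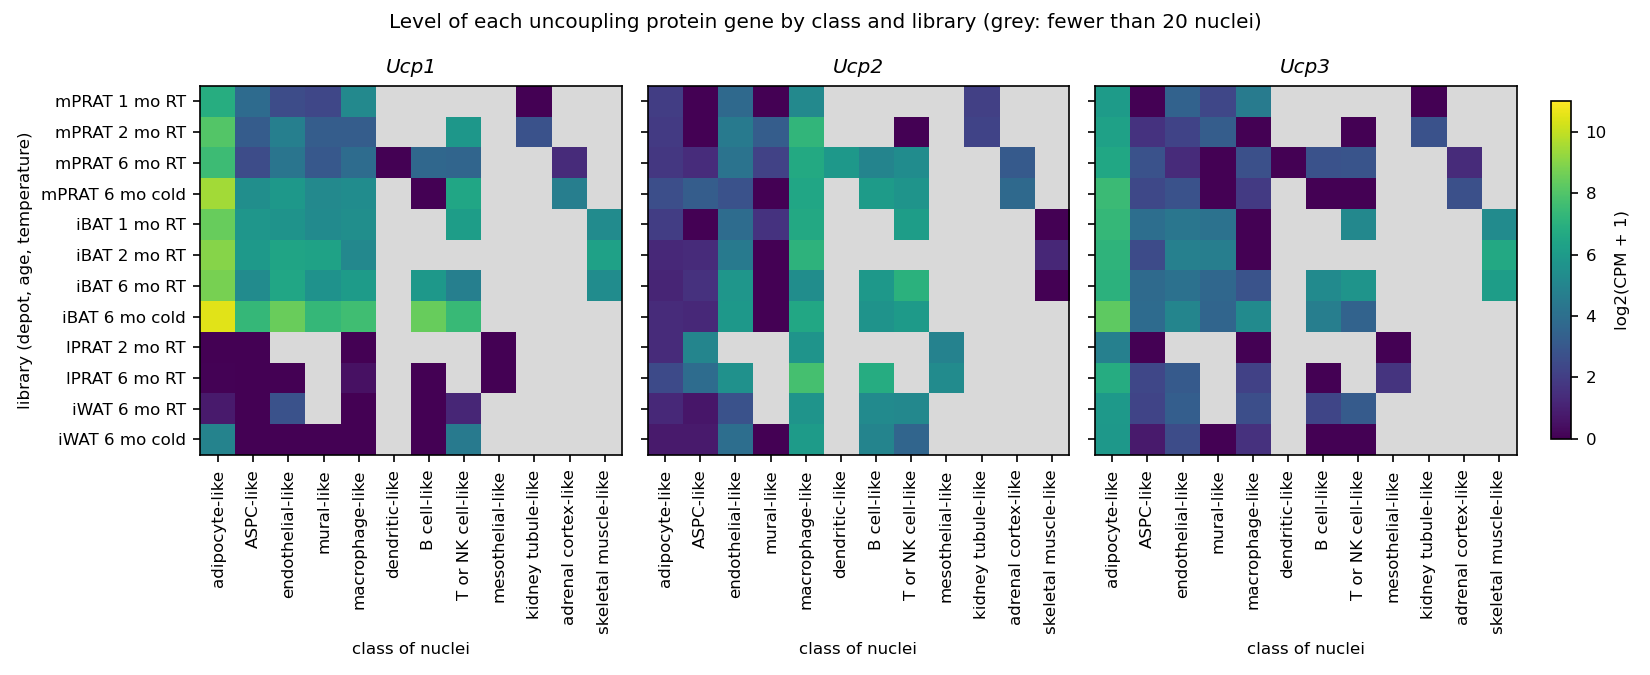
Level of Ucp1, Ucp2 and Ucp3 as log2(CPM + 1) in each class of nuclei (columns) and library (rows); grey fields are classes with fewer than 20 nuclei. Ucp1 and Ucp3 are brightest in the adipocyte-like column, with Ucp1 dark in lPRAT, and Ucp2 is brightest in the macrophage-like column, most of all in lPRAT at 6 months (215 CPM).

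Free RNA in the droplets also gives UMIs of an abundant transcript in nuclei that do not make it. In cold iBAT, where Ucp1 was most abundant, its level was 195 CPM in macrophage-like, 160 in ASPC-like (adipose stem and progenitor), 361 in endothelial-like and 349 in B cell-like nuclei. In cold mPRAT the level of Ucp1 was 39.4 CPM in macrophage-like, 41.9 in ASPC-like, 58.0 in endothelial-like and 89.6 (7 counts) in T or NK cell-like nuclei. In cold iWAT it was 0 in macrophage-like, ASPC-like and endothelial-like nuclei, where a limit of 3 counts allows up to 5.93, 2.23 and 7.43 CPM. In these 3 libraries Ucp1 was thus lower in the other classes named than in adipocyte-like nuclei, and the part of free RNA in it was not tested.

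In adipocyte-like nuclei Ucp1 was present in mPRAT and iBAT at every age. The mPRAT libraries measured 114 CPM at 1 month, 264 at 2 months, 186 at 6 months and 706 in cold. For iBAT the values were 342, 516, 427 and 1461 CPM in the same order. In iWAT it was 0.740 CPM (29 counts) at 22 °C and 29.7 CPM (527 counts) after cold. Each iBAT library was above the mPRAT library of the same age and temperature, and both depots were far above iWAT. In lPRAT, 0 counts at 2 months allowed up to 1.16 CPM (3 counts), and 1 count at 6 months gave 0.0601 CPM.

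Ucp3 was present in the adipocyte-like nuclei of all 12 libraries, lPRAT and iWAT included. Its mPRAT values were 65.6 CPM at 1 month, 77.4 at 2 months, 91.9 at 6 months and 181 in cold. In iBAT the values were 161, 142, 132 and 305 CPM. The white depots gave 27.0 CPM (70 counts) in lPRAT at 2 months, 110.8 in lPRAT at 6 months, 61.6 in iWAT at 22 °C and 58.0 in cold iWAT. Ucp3 was thus present in adipocyte-like nuclei with almost no Ucp1. Of these, lPRAT at 6 months lay above the 3 mPRAT libraries of 22 °C, iWAT at 22 °C just below them and lPRAT at 2 months well below.

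**Figure D2:**
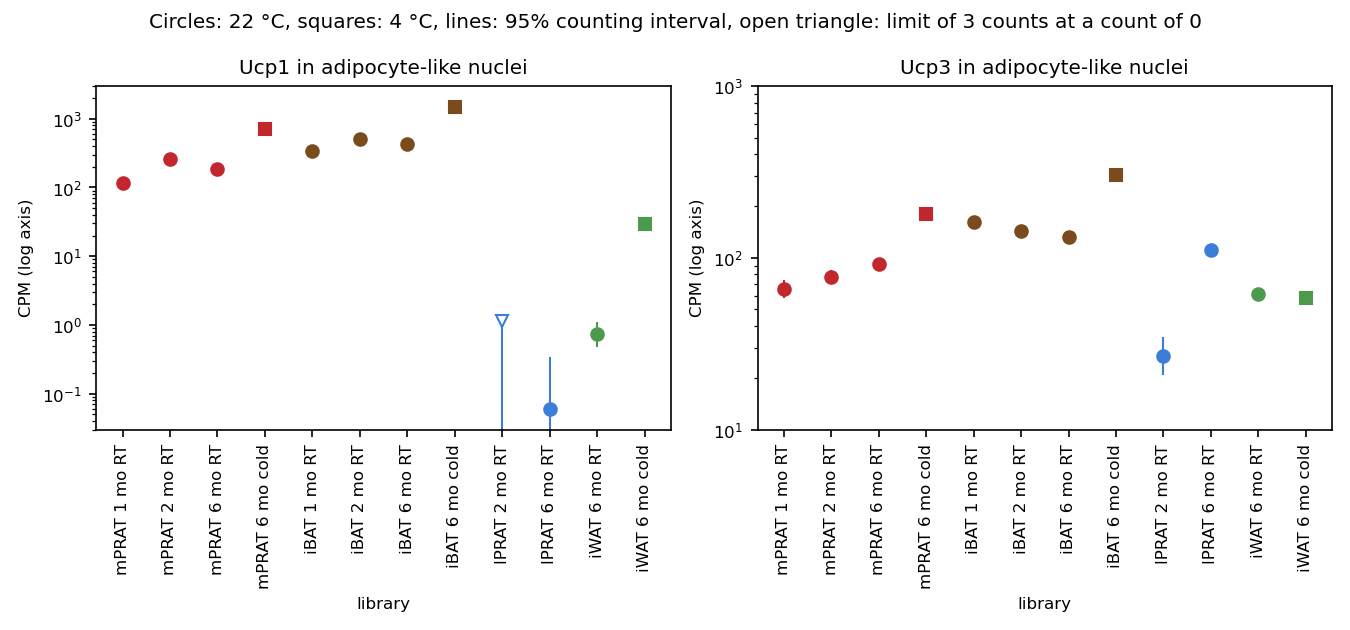
Ucp1 (left) and Ucp3 (right) in adipocyte-like nuclei of each library, in CPM on log axes; circles are 22 °C, squares 4 °C, lines 95% counting intervals and the open triangle the limit of 3 counts where the count was 0. Ucp1 runs from 0 in lPRAT at 2 months to 1461 CPM in cold iBAT, whereas Ucp3 stays between 27.0 and 305 CPM.

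Ranked by level, Ucp1 was highest in cold iBAT, followed by cold mPRAT, iBAT at 2, 6 and 1 months, mPRAT at 2, 6 and 1 months, cold iWAT, iWAT at 22 °C and lPRAT. Neighbours in this order differed beyond their counting intervals, except the lPRAT pair. For Ucp3 the order began with cold iBAT and cold mPRAT, and neighbours that did not differ beyond counting were mPRAT at 1 month against iWAT at 22 °C (ratio 1.07, 0.949 to 1.19) and iWAT at 22 °C against cold iWAT (ratio 1.06, 0.987 to 1.14). The number of Ucp1 UMIs per Ucp3 UMI, read only between libraries, was 1.74, 3.41, 2.02 and 3.90 in mPRAT at 1, 2 and 6 months and in cold, and 2.13, 3.63, 3.23 and 4.79 in iBAT. In both depots it was lowest at 1 month and highest in cold.

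Ucp1 was higher in cold in each of the 3 depots exposed to it. Adipocyte-like Ucp1 was 3.80-fold (3.67 to 3.94) higher in cold than in room-temperature mPRAT at 6 months, 3.42-fold (3.38 to 3.47) higher in iBAT and 40.1-fold (27.6 to 60.5) higher in iWAT. Ucp3 was 1.97-fold (1.86 to 2.09) higher in cold mPRAT and 2.31-fold (2.25 to 2.37) higher in cold iBAT. In iWAT the Ucp3 ratio was 0.941, with an interval of 0.874 to 1.01 that includes 1. So the depot with the largest Ucp1 ratio was the one in which Ucp3 showed no difference beyond counting error. The iWAT value of Ucp3 turns sign under another scaling, from -0.086 to 0.080 on the log2 scale. The iWAT ratio of Ucp1 rests on a low base: with 10 instead of 1 CPM added, its log2 ratio is 1.89 rather than 4.14.

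Ucp2 in adipocyte-like nuclei was low throughout, between 0.732 and 5.17 CPM on 4 to 124 counts. Its cold ratios there were 2.12 (1.47 to 3.05) in mPRAT, 1.25 (0.914 to 1.72) in iBAT and 0.522 (0.261 to 0.967) in iWAT. In macrophage-like nuclei of the same libraries Ucp2 was at 89.2, 96.5 and 65.2 CPM in cold, and the part of free RNA from such cells in these low adipocyte-like levels was not tested.

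Known partners of UCP1 in brown fat were described in the same nuclei, as log2 ratios of CPM + 1 with at least 20 counts over both libraries; a gene is counted as higher or lower at 2-fold, and no test was made. In cold mPRAT, 7.62% of all genes were 2-fold or more higher and 8.28% lower. Of 16 thermogenic genes apart from Ucp1, 6 were higher and 1, Ebf2, was lower (median 0.79, against -0.06 over all genes). Elovl3, a fatty acid elongase of brown fat, went from 3.62 to 103 CPM (log2 ratio 4.49), and Dio2, the deiodinase that makes active thyroid hormone, from 49.2 to 177 CPM (1.82). Cox7a1, a cytochrome oxidase subunit, and the coactivator Ppargc1a had ratios of 1.30 and 1.29. Of the 15 genes of fatty acid handling, 2 were higher, Fabp3 (2.02) and Cpt1b (1.10), and Angptl4, an inhibitor of lipoprotein lipase, was lower (-1.06), with a list median of 0.61.

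In cold iBAT the background was 5.15% higher and 8.17% lower. Only 3 of the 16 thermogenic genes were 2-fold higher, namely Elovl3 (8.77 to 204 CPM, log2 ratio 4.39), Dio2 (1.78) and Gk, glycerol kinase (1.32), and none was lower (median 0.37, all genes -0.10). Fatty acid genes had 4 higher and 1 lower members, led by Cpt1a (1.89) and Lpl, lipoprotein lipase (1.53), with the receptor Ppara lower (-1.09), a call that is lost under another scaling. In cold iWAT the background was 2.25% higher and 6.29% lower, and 8 of 15 thermogenic genes were higher (median 1.14, all genes -0.20). Dio2 (3.63), the muscle-type carnitine palmitoyltransferase Cpt1b (3.28), Gk (2.56) and the receptor Esrrg (2.35) were the largest there. The list median was thus above that of all genes in the 3 depots and largest in iWAT, but most of the list did not reach 2-fold in mPRAT or iBAT. The thermogenic and fatty acid lists share Cpt1b, and the lists were drawn up with earlier results of these data known.

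Alternatives to UCP1 heat, the calcium and creatine cycles, were thinly measured. Over all genes 7.62% were higher in cold mPRAT, 5.15% in cold iBAT and 2.25% in cold iWAT, where 6.29% were lower. In cold mPRAT 2 of 7 measured genes were higher, Alpl, the alkaline phosphatase of the creatine cycle (3.07 to 31.6 CPM, log2 ratio 3.00), and Ckb, creatine kinase B (2.65 to 18.3 CPM, 2.40). The same 2 of 9 were higher in cold iBAT, Ckb at 3.18 and Alpl at 3.08. In cold iWAT 0 of 9 were higher and 1, the calcium release channel gene Ryr2, was lower (-1.70), which does not set the list apart from all genes. Among 9 other mitochondrial carriers, Slc25a20, which brings acylcarnitines into the matrix, was higher in cold in mPRAT (1.19), iBAT (1.05) and iWAT (1.13); it was named for iWAT after its value was seen. Slc25a5, an ADP/ATP carrier, was higher in iBAT (1.24) and Slc25a10, the dicarboxylate carrier, in iWAT (1.16). The carrier medians were 0.70, 0.24 and -0.06 in the 3 depots, the last of which is 0.08 under another scaling.

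Over age at 22 °C, Ucp1 was not ordered by age in either depot: it was highest at 2 months. In mPRAT it was 2.31-fold (2.11 to 2.53) higher at 2 than at 1 month, and at 6 months 0.703 (0.669 to 0.739) of the level at 2 months. The corresponding ratios in iBAT were 1.51 and 0.826. At 6 months it stood at 1.63-fold (1.49 to 1.77) the level of 1 month in mPRAT and 1.25-fold in iBAT. Per 1000 UMIs of the adipocyte markers in the same nuclei, Ucp1 was 12.6, 21.3 and 13.1 in mPRAT at 1, 2 and 6 months. In iBAT it was 39.9, 51.7 and 38.6, so there it was lower at 6 than at 1 month on this scale. Median adipocyte-like depth in mPRAT was 1753.5 UMIs at 1 month and 6350.5 at 6 months, and the part of depth was not tested. The age comparisons share libraries within a depot.

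Ucp3 had opposite orders with age in the 2 depots on the CPM scale. In mPRAT it was higher at each later age, 1.40-fold (1.25 to 1.57) between 1 and 6 months. In iBAT it was lower at each later age, with a ratio of 0.821 (0.782 to 0.863) between 1 and 6 months. The difference between the depots was not tested. In lPRAT Ucp3 was 4.11-fold (3.24 to 5.29) higher at 6 than at 2 months. The lPRAT libraries differed in depth, with adipocyte-like medians of 6542 and 939 UMIs. Over 4 equal bins of nuclei by depth Ucp3 was 22.7 to 31.3 CPM at 2 months and 106 to 114 CPM at 6 months, and the part of depth in the difference between the libraries was not tested. Adipocyte-like Ucp2 rested on few counts at each age. At 6 months it was 0.411 (0.271 to 0.631) of its level at 1 month in iBAT and 0.808 (0.465 to 1.49) in mPRAT, an interval that includes no difference. In lPRAT it was 4.51 CPM on 75 counts at 6 months and 1.54 CPM on 4 counts at 2 months, a ratio of 2.93 (1.10 to 11.02).

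Among the partner genes, mPRAT at 6 against 1 month had a background of 5.93% higher and 7.87% lower. Of the 16 thermogenic genes 4 were higher, with Gk (98.8 to 684 CPM, log2 ratio 2.78), Dio2 (2.10) and Ppargc1a (1.51) the largest, and 1, the potassium channel gene Kcnk3, was lower (-1.01), a call that is lost under another scaling; the median was 0.09. In iBAT, against 4.19% higher and 4.89% lower, 3 of 16 were higher, Elovl3 (2.91), Gk (2.15) and Ppargc1a (1.14), and none was lower, with a median of 0.48. Of 9 calcium and creatine genes, Ryr2 was higher (2.47) and Alpl (-1.60) and Gatm (-1.40) lower in mPRAT (median -0.83), where 2 were higher under another scaling. In iBAT Ryr2 was higher (2.04) and Ckb (-1.13) and Ryr1 (-1.10) lower (median -0.06). In lPRAT, at 6 against 2 months, the background was wider, 11.7% higher and 9.03% lower. There 0 of 13 thermogenic genes were higher and Cidea, a lipid droplet protein, was lower (-1.21). Of 14 fatty acid genes in lPRAT 2 were higher, Angptl4 (2.45) and Pdk4, the kinase that restrains pyruvate oxidation (1.68). As many were lower, Ppara (-1.80) and Lpl (-1.05), which does not set the list apart from all genes. Under another scaling 3 were higher and 1 lower.

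Between depots at 6 months and 22 °C, adipocyte-like Ucp1 in mPRAT was 0.435 (0.423 to 0.449) of that in iBAT and 251-fold (174 to 375) that in iWAT. The share of the iBAT level reached by mPRAT was 0.334 at 1 month, 0.511 at 2 months and 0.484 in cold. At 2 months Ucp1 in mPRAT was at least 229-fold higher than in lPRAT and in iBAT at least 447-fold higher, taken against a floor of 3 counts in the lPRAT library. Ucp3 spanned a far narrower range between depots. It was 0.697 (0.666 to 0.729) in mPRAT relative to iBAT, 1.49 (1.41 to 1.58) relative to iWAT and 0.830 (0.782 to 0.881) relative to lPRAT. In lPRAT it was 1.80-fold (1.69 to 1.91) the iWAT level, so the depot with 1 Ucp1 count had more Ucp3 than either mPRAT or iWAT at this age and temperature. The comparisons at 6 months and 22 °C share 4 libraries.

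Against iBAT, 8.97% of all genes were 2-fold higher in mPRAT and 3.65% lower. Of the 16 thermogenic genes 8 were lower and 1 higher (median -0.98), with Pank1, a pantothenate kinase (-1.78), Cox7a1 (-1.31), Ppargc1b (-1.28) and Cidea (-1.22) the largest; the higher gene was Adrb3, the beta-3 adrenergic receptor (1.01), and it is not higher by 2-fold under another scaling. Of 8 other carriers 2 were higher and 1 lower (median -0.30), led by Slc25a10, which was 2.83 higher in mPRAT on the log2 scale, from 2.43 to 23.4 CPM. Of 15 fatty acid genes 2 were higher and 4 lower (median -0.69), or 1 and 5 under another scaling, led by Ppara (-1.46) and Fabp3 (-1.42). Against iWAT, with 7.27% higher and 4.34% lower, 14 of 16 thermogenic genes were higher in mPRAT and none lower (median 2.97). Cpt1b (3.09 to 215 CPM, 5.73), Dio2 (5.26), Gk (4.62) and Cidea (4.62) were the largest, and 9 of 15 fatty acid genes were also higher (median 1.19). For lPRAT against iWAT the background was 6.15% higher and 3.99% lower. Prdm16, a regulator of brown adipocyte identity, was lower in lPRAT (565 to 31.3 CPM, -4.13), as were Cidea (-2.19) and Ppargc1a (-1.80), and Adrb3 was higher (1.81). Of 14 fatty acid genes 0 were 2-fold different between lPRAT and iWAT, which does not set so short a list apart from all genes. The Ucp3 difference of this pair, 1.80-fold, was also below the 2-fold call.

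Per UMI, Ucp2 was highest in macrophage-like nuclei in 11 of 12 libraries. The exception was iBAT at 6 months and 22 °C, with 41.5 CPM on 7 counts there and 127 CPM on 5 counts in T or NK cell-like nuclei. Some leads rest on few counts, as in mPRAT at 1 month, with 34.7 CPM (7.15 to 101) against 12.4 (4.03 to 29.0) in endothelial-like nuclei. In macrophage-like nuclei Ucp2 measured 34.7, 150, 101 and 89.2 CPM in mPRAT at 1, 2 and 6 months and in cold. The iBAT values were 99.8, 138, 41.5 and 96.5 CPM, and iWAT gave 50.7 at 22 °C and 65.2 in cold. In lPRAT it was 50.1 at 2 months and 215 (197 to 235) at 6 months, the highest of the 12. Counts behind most of these values were small, from 3 to 74, except for 512 in lPRAT at 6 months. When the 12 values were put in order, each overlapped its neighbour in counting error. The median of 92.8 CPM compares with a median of 1.99 CPM in adipocyte-like nuclei.

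**Figure D3:**
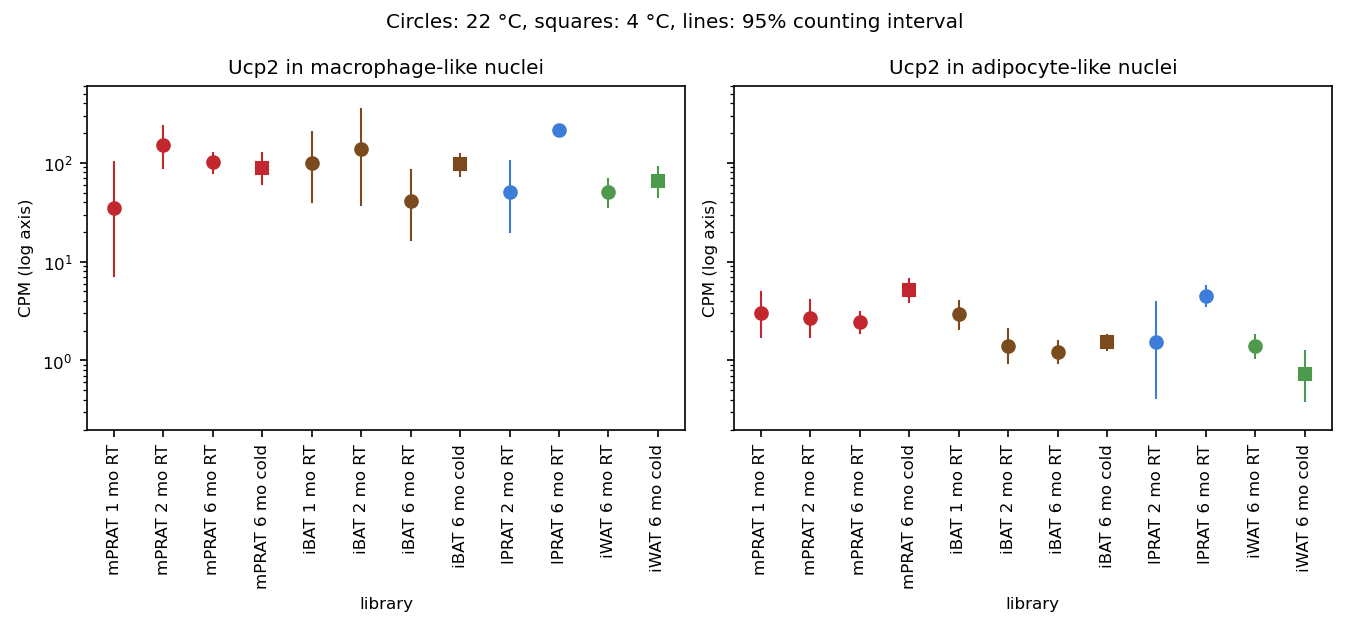
Ucp2 in macrophage-like (left) and adipocyte-like nuclei (right) of each library, in CPM on a common log axis; circles are 22 °C, squares 4 °C and lines 95% counting intervals. Macrophage-like values lie between 34.7 and 215 CPM and adipocyte-like values between 0.732 and 5.17 CPM.

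Macrophage-like Ucp2 in lPRAT was 4.29-fold (2.07 to 10.7) higher at 6 than at 2 months, 4.25-fold (3.06 to 6.04) the iWAT level, and the mPRAT level was 0.469 (0.363 to 0.600) of it. In cold its ratio was 0.883 (0.571 to 1.34) in mPRAT, 2.32 (1.06 to 6.02) in iBAT, on 7 counts at 22 °C, and 1.29 (0.785 to 2.10) in iWAT. With nuclei of at least 1000 genes the iBAT log2 ratio moves from 1.20 to 2.33. Within lPRAT at 6 months the macrophage-like nuclei were divided, after the values were seen, by a UMI of Gpnmb or Atp6v0d2, genes known from lipid-laden macrophages. Nuclei with such a UMI, 482 or 52.7%, had 195 CPM of Ucp2 (174 to 218) at a median depth of 2787.5 UMIs. The 432 without had 261 CPM (225 to 300) at 1277.5 UMIs. In iWAT at 22 °C it was 59.7 CPM (19.4 to 139) in 24 nuclei with such a UMI, on 5 counts, against 49.6 CPM (34.3 to 69.3) without. These intervals overlap, so iWAT gave no order to set beside that of lPRAT, and the part of depth was not tested.

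Other leukocyte-like classes also carried Ucp2. B cell-like nuclei ranged from 30.0 to 112 CPM over 7 libraries, with 30.5 CPM (215 counts) in the 3560 such nuclei of mPRAT at 6 months. The 112 CPM, in lPRAT at 6 months, rests on 8 counts. In iWAT at 22 °C there were 19 counts, and the remaining libraries held 1 to 3 each. T or NK cell-like nuclei had 39.8 CPM (128 counts) in mPRAT and 33.8 (26 counts) in iWAT at 6 months and 22 °C. Their other 6 libraries held 0 to 6 counts each, and the count of 0, in 23 nuclei of mPRAT at 2 months, allows up to 166 CPM. The dendritic-like class, seen in mPRAT at 6 months, had 57.4 CPM. Endothelial-like nuclei had a median of 17.1 CPM (5.80 to 57.9). ASPC-like nuclei had 13.7 CPM in lPRAT at 6 months, on 24 counts. The 10 libraries of other depots held 0 to 6 counts each, at most 8.38 CPM, and the 3 with a count of 0 allow up to 7.98, 6.18 and 7.28 CPM. The lPRAT value at 2 months, 31.1 CPM, rests on 15 counts of which 10 lay in 1 nucleus. Mesothelial-like nuclei, which line the abdominal cavity, had 28.0 CPM (4 counts) and 39.2 CPM (37 counts) in lPRAT. In mPRAT at 6 months leukocyte-like classes held 67.3% of all Ucp2 UMIs and 23.4% of all UMIs. Across libraries their share of Ucp2 had a median of 21.5%, against the adipocyte-like median of 25.6%. Dnajb13, a minus-strand gene that overlaps the last 305 bases of Ucp2, was also highest in lPRAT, at 6.24 and 18.1 CPM over all kept nuclei against 0.176 to 2.87 elsewhere. How the counting treated strand is not given in the sources used here, so reads at this overlap cannot be assigned to 1 gene.

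Skeletal muscle-like nuclei, a known site of UCP3, were seen in iBAT. At 2 months 470 of them had 97.5 CPM of Ucp3 (82.4 to 114) and 78.5 CPM of Ucp1. Muscle-like nuclei had 0.805 Ucp1 UMIs per Ucp3 UMI (0.628 to 1.03) and adipocyte-like nuclei of that library 3.63 (3.48 to 3.79). In mural-like, endothelial-like and ASPC-like nuclei of the library Ucp3 was 24.8, 26.9 and 4.73 CPM. Summed adipocyte markers were at 1506 CPM in muscle-like, 1704 in mural-like, 3235 in endothelial-like and 1214 in ASPC-like nuclei. The part of free RNA in the muscle-like level of Ucp3 was not tested. In the smaller sets of iBAT at 1 and 6 months (44 and 35 nuclei) Ucp3 was 38.8 and 69.4 CPM, on 6 and 7 counts.

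Within adipocyte-like nuclei 50% of the UMIs of Ucp1, and of Ucp3, lay in a minority of nuclei. In mPRAT 50% of the Ucp1 UMIs lay in 3.39%, 4.56% and 5.06% of nuclei at 1, 2 and 6 months and in 14.8% in cold. In iBAT the figures were 9.74%, 10.8%, 11.1% and 27.5%. For Ucp3 they were 4.75%, 5.69%, 9.56% and 12.9% in mPRAT, 7.82%, 7.90%, 8.73% and 19.8% in iBAT and 6.61% in cold iWAT. In iBAT and cold mPRAT the Ucp3 figures were thus the smaller. Such figures also depend on the number of UMIs per nucleus, and the part of that was not tested. Nuclei with a Ucp3 UMI held on average 1.06 (lPRAT at 2 months) to 2.90 (cold iBAT) of them. Small figures alone thus do not show an uneven spread. In cold iWAT 33 of 2858 nuclei (1.15%) held 50% of the Ucp1 UMIs and 154 (5.39%) had any, and at 22 °C 3 of 4834 nuclei held 50%. A small set of nuclei thus carried the Ucp1 of cold iWAT.

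Depth bears on these shares, so nuclei were also thinned to 1000 UMIs each. The share of adipocyte-like nuclei with a Ucp1 UMI was then 9.18%, 17.3% and 13.7% in mPRAT at 1, 2 and 6 months and 41.1% in cold, where 13.2%, 21.9%, 29.9% and 60.5% had one before thinning. Macrophage-like nuclei, which should lack the gene, gave 2.70%, 2.13%, 0.816% and 2.45%. In iBAT the thinned shares were 26.3%, 34.4%, 30.2% and 73.5%, against 8.00%, 0%, 5.80% and 22.8% in macrophage-like nuclei. The iBAT value of 0% at 2 months is 0 of 9 nuclei, where 3 counts allow up to 33.3%. Cold iWAT gave 3.16% against 0 of 217 macrophage-like nuclei, which allows up to 1.38%, and iWAT at 22 °C gave 0.0862%. Detection in adipocyte-like nuclei thus had the same order as the level within each depot. It was above the macrophage-like share in the 4 mPRAT and 4 iBAT libraries, but the intervals overlapped in mPRAT at 1 month (upper limit of 14.2% from 1 of 37 macrophage-like nuclei) and in iBAT at 1 and 2 months, where 25 and 9 such nuclei were left. Thinning left out the shallower nuclei, from 30 of 3872 in mPRAT at 6 months to 2249 of 8161 in iBAT at 1 month among these libraries, and median depths before it were 1352 to 6762 UMIs in adipocyte-like and 872 to 2186.5 in macrophage-like nuclei.

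Ucp1 per UMI was also lower in the deepest nuclei. From the shallowest to the deepest of 4 equal bins of nuclei it went from 152 to 71.7 CPM in mPRAT at 1 month, from 376 to 182 at 2 months, from 234 to 143 at 6 months and from 827 to 581 in cold, and from 77.8 to 16.3 in cold iWAT. In iBAT it went from 394 to 304 CPM at 1 month, 577 to 464 at 2 months, 435 to 421 at 6 months and 1571 to 1404 in cold. Ucp3 was also lower in the deepest than in the shallowest bin in mPRAT at 6 months (116 to 87.0 CPM) and in cold (191 to 160), and in iBAT at 1 month (179 to 153), 2 months (148 to 138), 6 months (139 to 127) and in cold (344 to 280). It was higher in the deepest bin in mPRAT at 1 month (60.7 to 68.1) and 2 months (69.5 to 76.0) and in iWAT at 22 °C (59.2 to 62.2) and in cold (54.7 to 58.9). Shares were compared at a fixed depth.

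Co-detection asked whether the same nuclei carried Ucp1 and Ucp3. In mPRAT at 6 months 15.0% (12.1% to 18.3%) of 527 nuclei with a Ucp1 UMI also had a Ucp3 UMI, against 8.21% (7.29% to 9.19%) of 3315 without. In cold mPRAT the shares were 21.7% (19.1% to 24.6%) and 14.5% (12.6% to 16.6%). At 1 month they were 8.64% and 5.51% and at 2 months 9.45% and 7.27%, with overlapping intervals. In mPRAT, nuclei with both genes were 1.49, 1.24 and 1.64 times the number given by the product of the separate shares at 1, 2 and 6 months and 1.24 times in cold.

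In iBAT the shares of Ucp3 in nuclei with and without a thinned Ucp1 UMI lay close together. They were 13.9% and 14.3% at 1 month, 14.3% and 12.6% at 2 months, 13.5% and 12.1% at 6 months, and 25.7% and 26.8% in cold. Observed over product ratios were 0.981, 1.08, 1.08 and 0.990. Before thinning 34.4%, 46.4%, 49.1% and 97.9% of iBAT adipocyte-like nuclei had a Ucp1 UMI in the same order. Most nuclei counted as without in cold iBAT thus still held Ucp1, so the close shares there cannot show whether the genes go together. The sign in cold iBAT depended on the thinning: at 2000 UMIs the difference was 3.92 points in place of -1.02, and without the deepest 10% of nuclei it was 2.40 points. At 2000 UMIs the mPRAT differences also widened, from 6.79 to 16.0 points at 6 months and from 7.23 to 17.3 in cold. In cold iWAT 7 of 89 nuclei with Ucp1 had Ucp3 (7.87%, 3.22% to 15.5%) against 4.91% of the others. Over the 3 thinning depths and without the deepest nuclei, the difference at 6 months and 22 °C ran from 5.41 to 16.0 points in mPRAT and from 1.13 to 3.33 in iBAT. In cold it ran from 4.35 to 17.3 points in mPRAT and from -1.02 to 3.92 in iBAT. The difference between the depots was not tested.

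**Figure D4:**
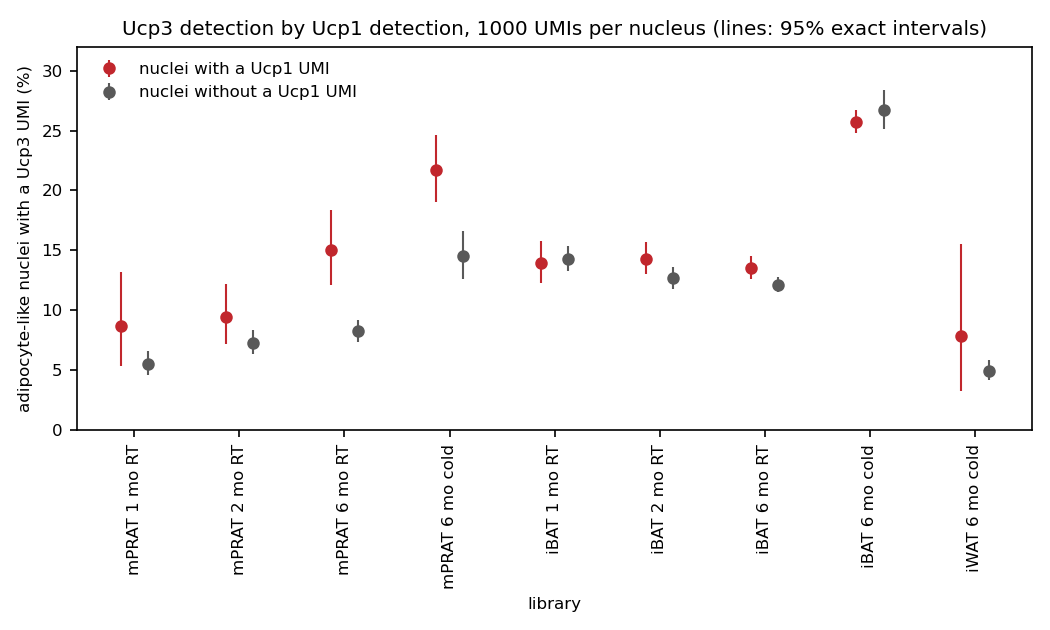
Share of adipocyte-like nuclei with a Ucp3 UMI among nuclei with (red) and without (grey) a Ucp1 UMI, at 1000 UMIs per nucleus, with 95% exact intervals, for the 9 libraries plotted. The intervals are apart in mPRAT at 6 months (15.0% and 8.21%) and in cold mPRAT (21.7% and 14.5%), and they overlap in cold iBAT (25.7% and 26.8%).

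Nuclei with neither gene at 1000 UMIs made up 79.2% of mPRAT at 6 months, 50.4% in cold mPRAT and 19.4% in cold iBAT, where 18.9% had both. A nucleus without a UMI at this depth may still carry the transcript: before thinning, 97.9% of the adipocyte-like nuclei of cold iBAT had a Ucp1 UMI. Ucp2 was too rare in these nuclei for co-detection, with at most 13 nuclei holding Ucp1 and Ucp2 in any library.

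The thermogenic and fatty acid lists separated nuclei with and without a thinned Ucp1 UMI in mPRAT at 6 months, at 22 °C and in cold, and in cold iWAT. They hardly did so in iBAT at 6 months and 22 °C. The other libraries were not split, and the difference between depots was not tested. Before thinning 29.9%, 60.5%, 5.39% and 49.1% of adipocyte-like nuclei had a Ucp1 UMI in these 4 libraries, so many nuclei counted as without still held Ucp1. This split was added after the data were seen, and the nuclei of 1 library share its free RNA. The share of all genes is given here for higher calls only. Whether the lower calls of the lists exceeded the share of lower genes among all genes was not tested. In mPRAT at 6 months 12 of 16 thermogenic genes were 2-fold or more higher in nuclei with Ucp1 (median log2 ratio 1.59, all genes -0.05), where 2.63% of all genes were that much higher. Dio2 stood at 169 against 32.6 CPM (2.34), Elovl3 at 2.28, Gk at 2.10 and Cox7a1 at 1.78. In cold mPRAT 11 of 16 were higher (median 1.16, background 3.1%), led by Cox7a1 (1.57) and Cpt1b (1.41). Of the 15 fatty acid genes 7 and 6 were higher in these libraries, with Pdk4 (1.95) and Fabp3 (1.91) the largest at 22 °C. The other 2 lists were less uniform. Of 7 calcium and creatine genes 2 were higher and 1 lower at 22 °C (median 0.25), and 2 of 5 were higher in cold (median 0.73). Of 8 other carriers 1 was higher and 1 lower in each library (medians 0.20 and 0.56). The lower carrier was Slc25a10, at 7.13 against 25.6 CPM (-1.71) at 22 °C and 7.60 against 52.4 CPM (-2.63) in cold.

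In cold iWAT 12 of 15 thermogenic genes were higher in the 89 nuclei with Ucp1 than in the 2730 without (median 3.50, all genes -0.09), where the background was 12.5%. Dio2 (8.89 to 282 CPM, 4.84), Elovl3 (4.72), Gk (4.47) and Cpt1b (4.26) were the largest, and Adrb3 was the 1 lower gene (-1.21; 396 to 171 CPM). Of the fatty acid genes 10 of 15 were higher, with Fabp3 (4.60) and Ppara (3.41) among them. On mostly few counts, 4 of 4 measured calcium and creatine genes and 3 of 7 other carriers were also higher. In iBAT at 6 months 0 of 16 thermogenic genes passed 2-fold (median 0.28), the largest being Dio2 at 0.75, and 0.00658% of all genes did; the part of free RNA, seen as a Ucp1 UMI in 5.80% of macrophage-like nuclei there, was not tested. Ucp3 itself was at 165 against 81.8 CPM in mPRAT at 22 °C (log2 ratio 1.00), 239 against 143 in cold mPRAT (0.74), 145 against 127 in iBAT (0.20) and 126 against 56.4 in cold iWAT (1.15). Ucp2 did not share this, with log2 ratios of -0.21 in mPRAT, -0.13 in cold mPRAT and -0.06 in iBAT, on few counts.

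**Figure D5:**
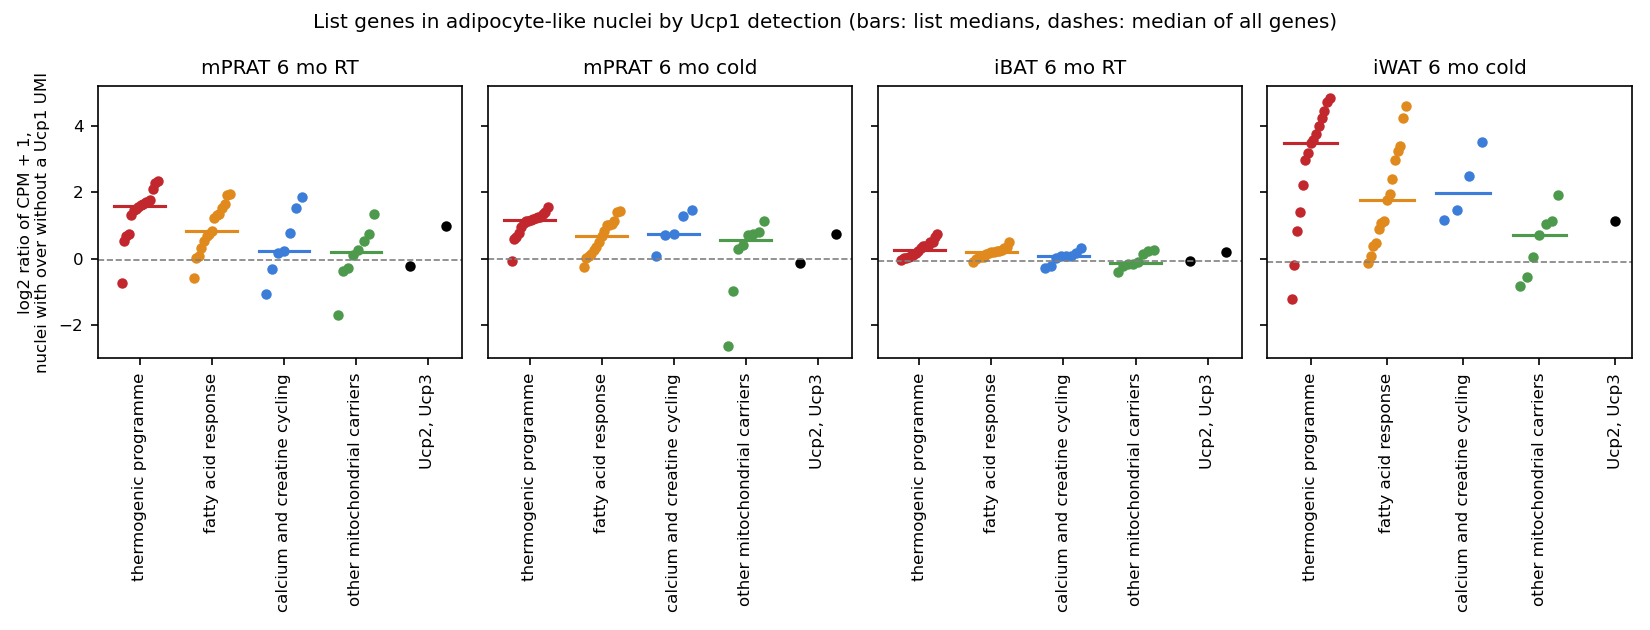
Log2 ratio of CPM + 1 in adipocyte-like nuclei with over without a Ucp1 UMI, for each measured gene of the 4 lists and for Ucp2 and Ucp3, in 4 libraries; bars are list medians and dashes the median of all genes. The thermogenic median is 1.59 in mPRAT, 1.16 in cold mPRAT, 0.28 in iBAT and 3.50 in cold iWAT, where Ucp2 had too few counts to plot.

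Over the 12 libraries, genes whose adipocyte-like level was most like that of Ucp1 by Pearson correlation of log2(CPM + 10), among 10590 genes, were Pgk1 (0.989), Lrpprc (0.988), Clstn3 (0.988), Dlst (0.987) and Slc25a51 (0.986). For Ucp3 they were Phospho2 (0.983), Tsen54 (0.981), Ccdc84 (0.975), Fam136a (0.973) and Foxred1 (0.971). A gene was compared if it reached 10 CPM in any library. Tsen54 (0 to 10.2 CPM) and Fam136a (0.770 to 13.2 CPM) passed this only near their highest level, so their likeness rests on low levels. Ucp1 and Ucp3 correlated with each other at 0.781 (Spearman 0.860). These points share depots, and libraries differ in depth, so the values describe the 12 libraries only. For Ucp2, whose adipocyte-like counts were low, likeness was taken after the data were seen over 12 class means, and Arrdc1 (0.967), Arpc2 (0.942), Fndc3a (0.932), Zfp984 (0.931) and Usf1 (0.931) were nearest of 14540 genes. The class means come from different libraries and depots, with dendritic-like nuclei from 1 library and muscle-like nuclei from iBAT alone. Some rest on few Ucp2 counts, such as 3 in mural-like and 2 in muscle-like nuclei. Ucp3 and its antisense neighbour Gm10603, which overlaps its first 1857 bases, cannot be told apart at the overlap without knowing the strand setting; Gm10603 was at 6.48 to 26.8 CPM over all kept nuclei.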

How the data were processed

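Nuclei of mouse adipose depots were counted with Cell Ranger 7.0.0 against mm10, per the submitters' processing notes. The deposited files hold raw UMI counts per gene and nucleus, which the authors made with that version per the file headers; whether intronic reads or strand were used is not given in the sources used here. From these counts, barcodes with at least 500 UMIs, 300 genes and at most 10% mitochondrial UMIs were kept. A nucleus took the class with most marker UMIs if at least 3 of its markers were present and their UMIs were at least 2 times those of the next class. This scoring was chosen after the data were seen, and between 0.907% and 17.7% of a library's adipocyte-like nuclei lay near its limits. Nuclei with 3 or more markers of several classes (3670 in all, 1.58% to 11.7% of a library) were left out as mixed, which is how doublets were treated; no doublet caller was run. Classes of at least 20 nuclei in a library are reported, from lists for 15 classes.

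Counts were summed per class and library and scaled to CPM. Levels carry exact Poisson intervals, ratios exact conditional binomial intervals and shares exact Clopper-Pearson intervals, all at 95% and for counting error only. A count of 0 is given the limit of 3 counts throughout, also as the base of a fold. UMIs count molecules, but nuclei of 1 library are not replicates, so no p-value is given. For all genes, log2 ratios used 1 CPM added, at least 20 counts over both libraries and a call at 2-fold. The calls and the coverage of the intervals were run on simulated Poisson sums. The intervals assume such sums, which hold no clustering of UMIs in nuclei, so this run cannot show their coverage in these data. For co-detection each nucleus was thinned to 1000 UMIs. The 3 genes and the lists of 16 thermogenic, 11 calcium and creatine, 9 carrier and 15 fatty acid genes were chosen with earlier results of these data known. Named were the 3 genes, up to 4 list genes with the largest absolute log2 ratio in a comparison, and the 5 genes most like each member; other list genes named singly were chosen after their values were seen. Alternatives changed the filters, gate, scaling, added CPM, thinning, weighting of nuclei and subtraction of the macrophage-like level. Promoter sequences came from RefSeq (3 of 3 genes matched). Computation used Python 3.11.15, numpy 2.4.6, scipy 1.17.1, pandas 2.3.3 and matplotlib 3.10.9. No protein sequence was used here.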

Additional observations from a re-analysis of the deposited data

Results flagged for a closer look

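Values below are log2 ratios of CPM + 1, picked because libraries of different depots lay on opposite sides of 0 under the same contrast; with 1 library per group the difference was not tested. Ucp3 in adipocyte-like nuclei was 0.48 at 6 against 1 months in mPRAT and -0.28 in iBAT. At 2 against 1 months it was 0.24 in mPRAT and -0.17 in iBAT. At 6 against 2 months it was 0.24 in mPRAT, -0.11 in iBAT and 2.00 in lPRAT, whose library at 2 months was the shallowest. Per 1000 adipocyte marker UMIs, Ucp3 in mPRAT was 7.21, 6.25 and 6.47 at 1, 2 and 6 months, so its signs against 1 month depend on the scale. In cold Ucp3 was 0.97 in mPRAT, 1.20 in iBAT and -0.086 in iWAT. Ucp2 in macrophage-like nuclei was -0.57 in mPRAT and 2.08 in lPRAT at 6 against 2 months, with 18 and 7 counts in the younger libraries. In cold it was -0.18 in mPRAT, 1.20 in iBAT and 0.36 in iWAT, with 7 counts in iBAT at 22 °C.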

How the results depend on the processing

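Over 194 alternatives to 20 ratios, 193 kept the sign. None of these alternatives scaled to adipocyte marker UMIs, on which the age order of Ucp1 in iBAT and of Ucp3 in mPRAT differed. The exception was Ucp3 in cold iWAT, -0.086 on the log2 scale and 0.080 with TMM-like scaling. That scaling also gave, for Ucp1, 1.95 in cold iBAT (from 1.77), 0.88 at 6 against 1 months in mPRAT (0.70), 0.43 in iBAT (0.32) and -1.29 for mPRAT over iBAT (-1.19). For Ucp3 it gave 1.38 in cold iBAT (1.20), 0.66 and -0.17 with age in mPRAT and iBAT (0.48 and -0.28), -0.61 for mPRAT over iBAT (-0.52) and 0.46 for mPRAT over iWAT (0.57). Leaving out the deepest 10% of nuclei gave Ucp1 values of 1.80 in cold mPRAT (1.92), 1.80 in cold iBAT, 4.42 in cold iWAT (4.14), 0.24 with age in iBAT and -0.95 for mPRAT over iBAT, and Ucp3 values of 1.25 in cold iBAT and 0.65 for mPRAT over iWAT. A mean over nuclei gave Ucp1 values of 1.84, 1.80, 0.24 and -1.03 for cold mPRAT, cold iBAT, age in iBAT and mPRAT over iBAT, and 0.68 for Ucp3 in mPRAT over iWAT. Subtracting the macrophage-like level gave Ucp1 values of 1.81 in cold iBAT, 1.10 and 0.27 with age in mPRAT and iBAT and -1.07 for mPRAT over iBAT, and Ucp3 values of 1.08 in cold iBAT and 1.01 with age in mPRAT, where the level subtracted at 1 month came from 3 UMIs in 1 nucleus for Ucp1 and 2 UMIs in 1 nucleus for Ucp3. With 10 CPM added, Ucp1 was 1.75 in cold iBAT and 1.89 in cold iWAT, and Ucp3 1.15 in cold iBAT. Without the mitochondrial limit the cold mPRAT values were 1.81 for Ucp1 and 0.83 for Ucp3 (0.97), and with mixed nuclei kept 1.86 for Ucp1. At 1000 genes per nucleus, Ucp1 with age was 0.90 in mPRAT and 0.44 in iBAT, and Ucp2 in macrophage-like nuclei of cold iBAT was 2.33 (1.20). The causes were not tested.

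For co-detection, thinning to 2000 UMIs gave 3.33 points in iBAT at 6 months (from 1.40), 3.92 in cold iBAT (from -1.02), 16.0 in mPRAT at 6 months and 17.3 in cold mPRAT, and without the deepest 10% of nuclei iBAT gave 2.74 and cold iBAT 2.40. More UMIs per nucleus leave more detections, so these are not on 1 scale. With no minimum count, 2119 in place of 1245 genes were 2-fold lower in lPRAT at 6 against 2 months, and 44.0% in place of 56.4% of the genes past 2-fold were higher. TMM-like scaling, added for these counts after seeing the data, moved the median of all genes from -0.10 to 0.03 in cold iBAT, from -0.20 to -0.07 in cold iWAT and from 0.00 to 0.16 in mPRAT with age. The share of higher genes among those past 2-fold moved from 38.7% to 52.5% in cold iBAT, from 26.3% to 39.2% in cold iWAT, and with age from 43.0% to 58.2% in mPRAT and from 46.1% to 58.6% in iBAT. In all, 198 alternatives stayed within the counting interval or 1.5 times the count, and 44 did not; 1 more marker in the gate and marker UMIs 3 times the next class (added after seeing the data) were among those that moved nothing. Few counts limit Ucp2 in macrophage-like nuclei (3 to 74 outside lPRAT at 6 months) and Ucp1 in lPRAT (0 and 1). No paired analysis was possible because each group had 1 library, so that groups compared share fewer than 2 replicate numbers, and no replicate could be left out. A test that takes depots as replicates of the cold contrast was not run.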
